A study of Mus musculus with 27 samples.

Results

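The 8 complement genes described here are C1qa, C1qb and C1qc, which encode the chains of C1q, the components C3 and C4b, the C1 inhibitor gene Serping1, and the anaphylatoxin receptor genes C3ar1 and C5ar1. They were chosen by name, with earlier results of these data known, and matched by symbol to the annotation of the array. The shares of all genes printed beside their counts are for scale and are not a test of the set. Of the 8, 7 had a probe set that named them and no other gene, out of 19937 genes with such a probe set. C3 was not matched by this rule and is not analysed here. Each of the 7 had 1 probe set, so no choice among probe sets was needed.

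The series asked how the transcripts of the mouse heart respond to pressure overload and to blocking BET bromodomain proteins. In transverse aortic constriction (TAC) a suture narrows the aortic arch, so that the left ventricle pumps against a raised pressure; JQ1 is a small molecule that displaces BET proteins from acetylated chromatin. Hearts were taken at days 3, 11 and 28 from mice with a sham operation and vehicle, mice with TAC and vehicle, and mice with TAC and JQ1, in 9 groups with 3 arrays in each. All mice were males of the strain C57Bl/6J, littermates per the labels, between 10 and 12 weeks of age, with no transgene named. The vehicle was DMSO, and injections of drug or vehicle started 1.5 days after the operation, so the day 3 hearts had the shortest exposure. No group had sham surgery with JQ1, and every JQ1 comparison here is among hearts with TAC or between these and sham hearts with vehicle. RNA came from a piece of heart of 10 to 20 mg, a tissue that holds many cell types. In such a sample fewer cells of a type and less RNA per cell cannot be told apart. The p-values and standard errors given here rest on the spread among arrays within groups, pooled for each gene over the 9 groups. They do not measure the spread of only the groups compared. The labels do not say outright that each array is a separate animal, so part of that spread may be technical.

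Complement is a cascade of blood and tissue proteins. C1q, built from its A, B and C chains, binds immune complexes and dying cells and activates the proteases C1r and C1s, which cleave C4 and C2. The resulting enzyme cleaves C3, and the fragments C3a and C5a act on the receptors encoded by C3ar1 and C5ar1, while C4b and C3b mark surfaces for removal. The C1 inhibitor, encoded by Serping1, blocks C1r and C1s and also kallikrein and factor XII. Most circulating complement is made by the liver, whereas C1q is made mainly by macrophages and related cells in tissues.

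The 3 C1q genes lie next to each other on chromosome 4 in the order C1qb, C1qc, C1qa, with no other gene between them in RefSeq. The 250 bases before the start site of the members that had both a promoter entry and values are shown, for a pair of neighbouring genes, C1qb and C1qc, and for the receptors C3ar1 and C5ar1. The sequences are from RefSeq on build GRCm38.p6, 5′ to 3′ on the strand of the gene, which is the minus strand for all 4. Of the 8 genes 5 had an entry among 32851 promoters. Capitals mark matches to searched motifs. The motifs, searched on both strands, were the PU.1 core GAGGAA, the AP-1 site TGANTCA, the C/EBP site TTGCNNAA, and the IRF and NF-kappaB sites.
C1qb, chr4:136886201-136886450: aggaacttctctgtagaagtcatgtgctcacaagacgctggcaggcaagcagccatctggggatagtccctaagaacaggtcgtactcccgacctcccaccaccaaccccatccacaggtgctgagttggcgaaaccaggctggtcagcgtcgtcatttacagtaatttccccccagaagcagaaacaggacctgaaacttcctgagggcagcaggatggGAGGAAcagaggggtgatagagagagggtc
C1qc, chr4:136892915-136893164: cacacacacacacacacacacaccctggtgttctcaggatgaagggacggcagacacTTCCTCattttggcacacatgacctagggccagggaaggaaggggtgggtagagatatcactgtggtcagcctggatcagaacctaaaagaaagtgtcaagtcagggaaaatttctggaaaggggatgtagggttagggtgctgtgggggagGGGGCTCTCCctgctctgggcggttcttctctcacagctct
C3ar1, chr6:122856158-122856407: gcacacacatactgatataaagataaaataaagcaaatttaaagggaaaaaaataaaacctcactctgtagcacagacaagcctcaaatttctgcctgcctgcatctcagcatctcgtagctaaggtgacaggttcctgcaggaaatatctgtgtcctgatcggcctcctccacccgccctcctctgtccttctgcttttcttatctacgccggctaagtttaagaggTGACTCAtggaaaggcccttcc
C5ar1, chr7:16259339-16259588: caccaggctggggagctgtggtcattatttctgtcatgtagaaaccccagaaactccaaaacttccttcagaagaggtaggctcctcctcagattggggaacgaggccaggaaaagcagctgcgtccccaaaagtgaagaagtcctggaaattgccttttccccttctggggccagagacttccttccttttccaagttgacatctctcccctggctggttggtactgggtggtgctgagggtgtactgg
In C1qb the PU.1 core lay 30 to 25 bases before the start, on the strand of the gene. In C1qc it lay 193 to 188 bases before the start on the other strand, as TTCCTC. The same core occurred in 23.3% of all promoters of this length. C1qc also held the NF-kappaB motif 41 to 32 bases before the start (3.9% of promoters), and C3ar1 held the AP-1 motif 22 to 16 bases before it (6.75% of promoters). The C5ar1 window held none of the 5 searched motifs. The C/EBP and IRF motifs, present in 9.56% and 2.98% of promoters, had no match in the 4 windows shown. None of the motifs overlapped another here, and a match describes letters only.

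All values below are the deposited log2 signal of a gene's probe set, so a difference of 1 is a doubling. Levels of the complement genes are compared between groups for 1 gene at a time, since probe sets differ in brightness. Differences are given ± standard error with the adjusted p of limma's moderated test (Benjamini-Hochberg over 19937 genes), and a gene is called when that p is under 0.05. Comparisons at 1 day set 3 arrays against 3. The comparison of JQ1 with TAC vehicle uses the same TAC vehicle arrays as the comparison of TAC vehicle with sham, so a rise in the first and a fall in the other are not independent. Array medians lay between 6.954 and 7.043, and no 2 arrays were identical. Correlation with the other arrays of the same group had a median between 0.988 and 0.997, lowest for replicate 1 of TAC JQ1 day 3. The tissue label was borne out by the 10 cardiomyocyte markers, whose mean levels lay between 12.46 and 13.93.

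TAC raised complement transcripts, and more of the 7 genes passed the test at the later days. Whether the effect itself differed between days is tested further below. At day 3, 1 of the 7 genes was called higher, C1qb, where 7.55% of all genes were called and 4.22% were called higher. At day 11, 4 of 7 were called higher (C1qa, C1qb, C1qc and C3ar1), against 15.5% of all genes called and 7.80% called higher. At day 28 all 7 were called higher, against 15.1% of all genes called and 8.13% called higher. None of the 7 was called lower with TAC on any day. The median difference of the 7 was 0.36 at day 3, 0.54 at day 11 and 1.14 at day 28, while the median over all genes was −0.03, 0.01 and −0.05. The 3 TAC vehicle arrays lay above the 3 sham arrays for 5, 7 and 7 of the 7 genes at the 3 days in turn. Of all genes 9.70%, 16.8% and 16.6% were separated in this direction.

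**Figure D1:**
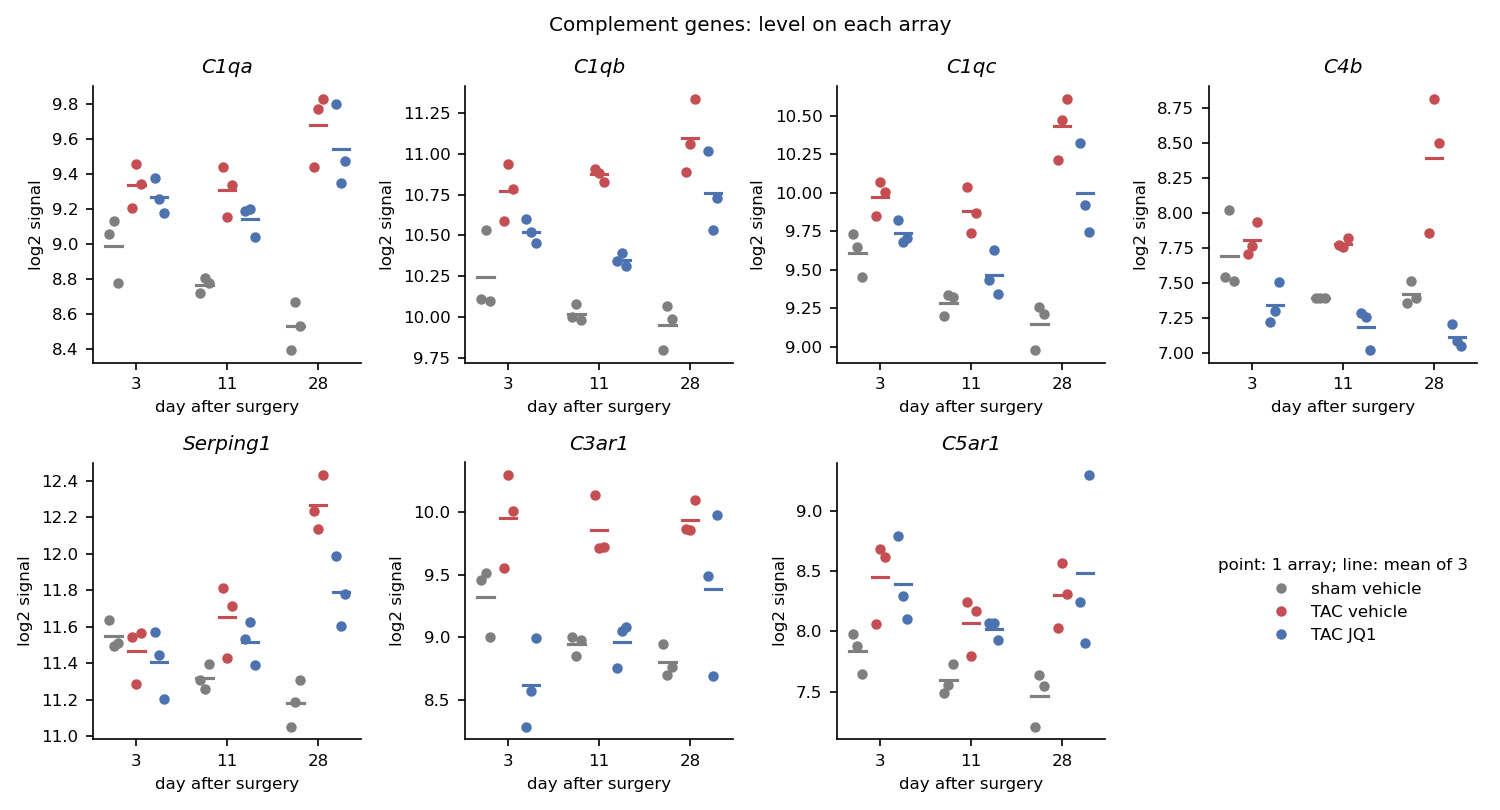
Log2 signal of the 7 complement genes on each of 27 arrays, by day after surgery (horizontal axis) and group (grey sham vehicle, red TAC vehicle, blue TAC JQ1); each point is 1 array and each line the mean of 3. At day 28 all TAC vehicle points lie above all sham points for each gene, C4b under JQ1 lies below sham, and 1 JQ1 array stands high for C5ar1.

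All 3 C1q chains were higher with TAC at days 11 and 28, and C1qb also at day 3. C1qb read 10.11, 10.53 and 10.10 in sham hearts and 10.59, 10.94 and 10.78 in TAC hearts at day 3. At day 11 it read 10.00, 10.08 and 9.98 in sham hearts and 10.91, 10.88 and 10.83 after TAC, and at day 28 9.80, 10.06 and 9.98 against 10.89, 11.06 and 11.34. The groups did not overlap on any of the days. C1qb rose by 0.52 ± 0.12 at day 3 (adjusted p = 0.00994), 0.86 ± 0.12 at day 11 (3.87e-05) and 1.15 ± 0.12 at day 28 (1.68e-06), the last a 2.22-fold change. The day 3 call was lost when only the groups compared were fitted (adjusted p = 0.103) and without sham replicate 1 (0.0571), sham replicate 3 (0.0705) or TAC replicate 2 (0.107).

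C1qa, the A chain, read 8.39, 8.67 and 8.53 in sham hearts at day 28 and 9.44, 9.77 and 9.83 in TAC hearts. The lowest TAC array was thus well above the highest sham array. C1qa rose by 1.15 ± 0.12 (2.22-fold, adjusted p = 9.01e-07) at day 28 and by 0.54 ± 0.12 (0.00225) at day 11. At day 3 its difference of 0.35 ± 0.12 did not pass the test (0.0817), although the arrays did not overlap. C1qc, the C chain, read 8.98, 9.26 and 9.21 in sham hearts and 10.22, 10.48 and 10.61 in TAC hearts at day 28. Its difference was 1.29 ± 0.13 (2.44-fold, adjusted p = 5.86e-07) at day 28, 0.60 ± 0.13 (0.00171) at day 11 and 0.36 ± 0.13 (0.0843, not called) at day 3. The calls of the 3 chains at days 11 and 28 held in each of the 14 alternatives run for each of them. Over the 27 arrays the levels of the chains had pairwise correlations of 0.93 to 0.94. Within groups, after removing group means, these were 0.83 (C1qa and C1qb), 0.88 (C1qa and C1qc) and 0.68 (C1qb and C1qc). The points share arrays and the chains lie in 1 gene cluster, so these are descriptions.

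C4b encodes the complement component C4, which supplies the scaffold of the classical and lectin C3 convertase. It has a close paralog, C4a, with its own probe set, and signal between such near-identical copies may be shared, so values of both are uncertain in that respect. In sham hearts C4b read 7.54, 8.02 and 7.51 at day 3, 7.40, 7.39 and 7.39 at day 11 and 7.36, 7.52 and 7.40 at day 28. In TAC hearts it read 7.71, 7.77 and 7.94, then 7.77, 7.76 and 7.82, and then 7.86, 8.82 and 8.50. The sham and TAC arrays overlapped at day 3 and were apart at days 11 and 28. At day 28 replicate 1 was the lowest of the TAC hearts. The difference was 0.11 ± 0.16 at day 3 (adjusted p = 0.809), 0.39 ± 0.16 at day 11 (0.106) and 0.97 ± 0.16 at day 28 (0.000145, 1.96-fold). The day 11 difference was called with only the groups compared (0.00388) and with array weights (0.0218). C4a differed by 0.09 ± 0.14 (0.822), 0.43 ± 0.14 (0.0303) and 0.25 ± 0.14 (0.249) at the 3 days and was called at day 11, a call lost in 6 of 13 alternatives (adjusted p up to 0.188).

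At day 3 Serping1 read 11.64, 11.50 and 11.51 in sham hearts and 11.55, 11.29 and 11.57 in TAC hearts, which overlapped (−0.08 ± 0.12, adjusted p = 0.81). At day 11 sham hearts read 11.31, 11.26 and 11.40 and TAC hearts 11.81, 11.43 and 11.71, a difference of 0.33 ± 0.12 that missed the threshold (0.0556). It was called without TAC replicate 2 (0.44, adjusted p = 0.0173), the lowest TAC array, and under 4 other settings. At day 28 the sham values of 11.05, 11.19 and 11.31 faced TAC values of 12.23, 12.14 and 12.43, far apart. Serping1 was then 1.08 ± 0.12 higher (2.12-fold, adjusted p = 1.31e-06).

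The receptor for C3a, C3ar1, read 9.45, 9.51 and 9.0 in sham hearts and 9.56, 10.30 and 10.01 in TAC hearts at day 3. At day 11 it read 9.0, 8.85 and 8.97 against 10.13, 9.71 and 9.72, and at day 28 8.95, 8.70 and 8.76 against 9.87, 9.86 and 10.09. The groups were apart on each day, narrowly so at day 3. C3ar1 differed by 0.63 ± 0.23 at day 3 (adjusted p = 0.111, not called), by 0.91 ± 0.23 at day 11 (0.00784) and by 1.14 ± 0.23 at day 28 (0.00144, 2.2-fold). The day 11 call was lost without TAC replicate 1 (0.0547), and the day 3 difference was called without TAC replicate 1 (0.83, adjusted p = 0.0376).

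C5ar1, the receptor for C5a, is known from neutrophils and macrophages. It read 7.98, 7.88 and 7.65 in sham hearts and 8.06, 8.68 and 8.61 in TAC hearts at day 3, and 7.49, 7.56 and 7.73 against 8.24, 7.79 and 8.17 at day 11. At day 28 it read 7.21, 7.64 and 7.55 against 8.02, 8.57 and 8.31. The arrays did not overlap, yet the differences of 0.62 ± 0.24 (adjusted p = 0.149) and 0.47 ± 0.24 (0.235) at days 3 and 11 were not called. The day 11 difference was called with only the groups compared (0.0388), and both were called with array weights (0.0108 and 0.00597). At day 28 C5ar1 was 0.83 ± 0.24 higher (1.78-fold, adjusted p = 0.0216), a call lost without sham replicate 1 (0.113), TAC replicate 2 (0.0974) or TAC replicate 3 (0.0702).

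Whether the TAC effect differed between days was asked with an F test, which called 1.31% of all genes and 3 of the 7: C1qa (adjusted p = 0.0287), C1qc (0.0191) and Serping1 (0.00388). The effect at day 28 exceeded that at day 3 by 0.80 ± 0.17 for C1qa, 0.92 ± 0.18 for C1qc and 1.16 ± 0.16 for Serping1. C1qb (0.139), C4b (0.0888), C3ar1 (0.7) and C5ar1 (0.837) were not called by it. The C1qa call was lost without any 1 of 7 arrays: at day 3 sham replicates 1 and 2 and TAC replicate 3, and at day 28 sham replicates 1 and 3 and TAC replicates 2 and 3 (adjusted p from 0.0541 to 0.0951). The C1qc call was lost without sham day 28 replicate 1 (0.0643) or TAC day 28 replicate 3 (0.0674). C4b was called without TAC day 28 replicate 1 (0.00782).

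Each arm was then followed over time. Within TAC vehicle hearts, day 28 exceeded day 3 by 0.80 ± 0.12 for Serping1 (adjusted p = 0.000372), 0.59 ± 0.16 for C4b (0.0371) and 0.46 ± 0.13 for C1qc (0.041), where 3.65% of all genes were called. The C4b and C1qc calls were lost when only these 2 groups were fitted (0.205 and 0.0995) and without any 1 of 5 of the 6 arrays (C4b 0.0621 to 0.208, C1qc 0.0686 to 0.206). The exception for both was TAC day 28 replicate 1. C1qa (0.35 ± 0.12, adjusted p = 0.114) and C1qb (0.33 ± 0.12, 0.164) were not called in this comparison. C3ar1 (−0.01 ± 0.23) and C5ar1 (−0.15 ± 0.24) had day 28 levels close to those of day 3. In sham hearts the 7 genes read lower at day 28 than at day 3, from −0.27 ± 0.16 for C4b to −0.52 ± 0.23 for C3ar1, and none was called. For C1qa the sham difference was −0.46 ± 0.12 (adjusted p = 0.172) and for C1qc −0.46 ± 0.13 (0.204). The F test on sham level by day called 0 of the 7 by limma, against 0.0652% of all genes, while C1qa, C1qc and Serping1 had unadjusted p of 0.00316, 0.00411 and 0.0151.

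JQ1 lowered part of the group. Which genes passed the test varied with the day, but no member passed the test that its JQ1 effect differed between days, given below, and genes were not tested against each other. At day 3, 1 of 7 was called lower than in TAC vehicle hearts (C3ar1), against 11.9% of all genes called and 7.61% called lower. At day 11, 4 of 7 were lower (C1qb, C1qc, C4b and C3ar1), against 16.0% called and 8.43% called lower. At day 28, 3 of 7 were lower (C1qc, C4b and Serping1), against 19.6% called and 12.4% called lower. None of the 7 was called higher. The median difference of the 7 was −0.24, −0.41 and −0.44 at the 3 days, and over all genes 0.02, −0.05 and 0.06. The 3 JQ1 arrays lay below the 3 TAC vehicle arrays for 3, 4 and 2 of the 7 genes, against 12.0%, 19.5% and 17.0% of all genes.

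**Figure D2:**
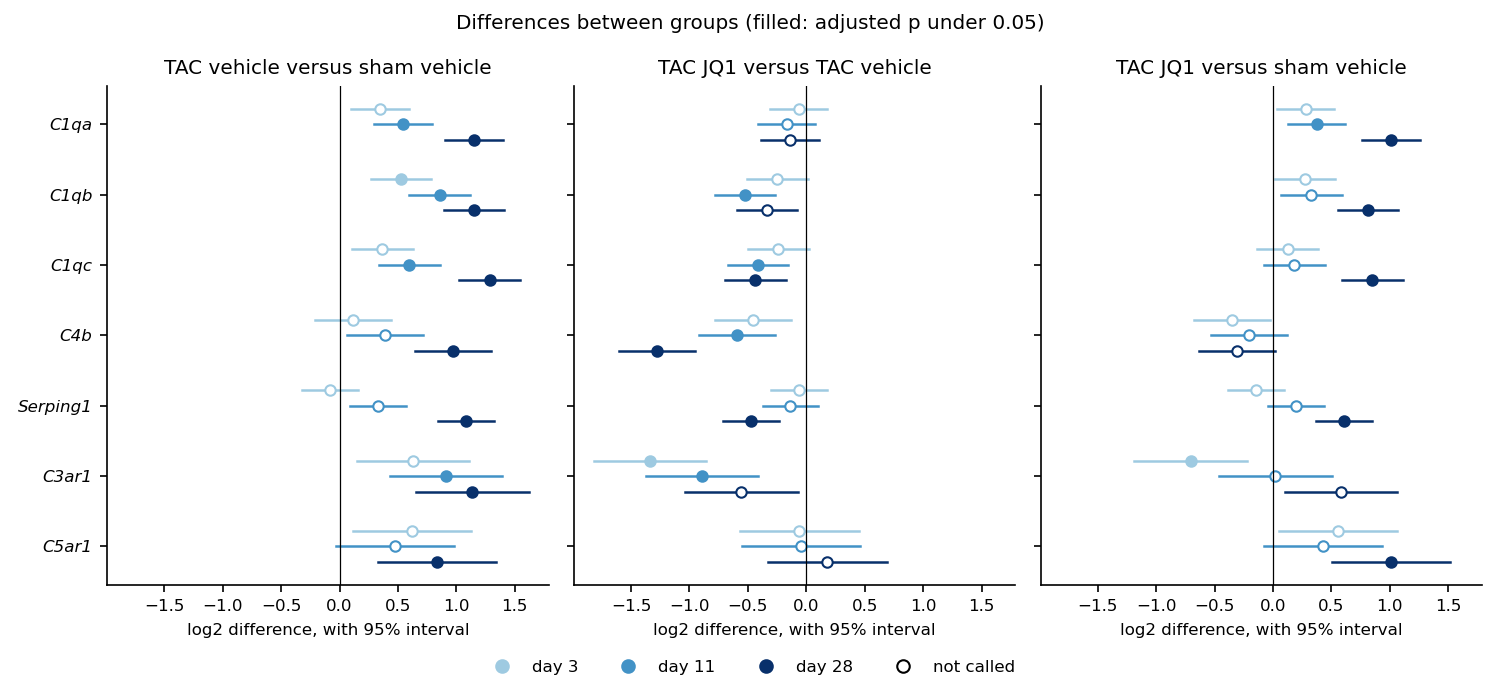
Log2 differences (horizontal axis) of the 7 genes (vertical axis) between the groups named above each panel, with 95% intervals of the limma fit, at day 3 (light), day 11 (middle) and day 28 (dark); filled points have adjusted p under 0.05. In the left panel the day 28 points are the rightmost for each gene, and in the middle panel C4b at day 28 (−1.28) and C3ar1 at day 3 (−1.34) lie farthest to the left.

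C4b showed the largest JQ1 difference at day 28 among the 7. Under JQ1 it read 7.22, 7.30 and 7.51 at day 3, 7.29, 7.26 and 7.02 at day 11 and 7.21, 7.09 and 7.05 at day 28. All 9 values lay below those of the TAC vehicle arrays of the same day. The differences from TAC vehicle were −0.46 ± 0.16 (adjusted p = 0.0599, not called), −0.59 ± 0.16 (0.0115) and −1.28 ± 0.16 (4.54e-06), the last a 2.42-fold lower level. The day 11 call was lost without JQ1 replicate 3 (0.0576), and the day 3 difference was called without JQ1 replicate 3 (0.0421). Against sham hearts C4b under JQ1 read lower on each day (−0.35 ± 0.16, −0.21 ± 0.16 and −0.31 ± 0.16), with no overlap of arrays and no call on a single day. Of all genes 15.2%, 17.8% and 18.7% were separated in this direction. At day 28 it was called when only these 2 groups were fitted (0.0364). Over the mean of the 3 days this difference was called (−0.29 ± 0.09, adjusted p = 0.0177), where 29.9% of all genes were called. C4b thus had its 3 lowest group means in the 3 JQ1 groups, from 7.12 ± 0.08 (SD, n = 3) at day 28 to 7.35 ± 0.15 at day 3. Its highest was 8.39 ± 0.49 in TAC vehicle hearts at day 28.

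C3ar1 was lower under JQ1 at day 3, where it read 8.29, 8.57 and 8.99 under JQ1, below each TAC vehicle array, with the highest of them barely below the lowest sham array. It was 1.34 ± 0.23 lower than in TAC vehicle hearts on the log2 scale (2.52-fold, adjusted p = 0.000471). At day 11 it read 8.75, 9.05 and 9.08 under JQ1, where 1 value lay below the 3 sham arrays and the other two above them. It was 0.89 ± 0.23 lower than with vehicle on the log2 scale (adjusted p = 0.0102). That call was lost without TAC replicate 1 (0.065) or JQ1 replicate 1 (0.0579). At day 28 it read 9.49, 8.69 and 9.97 and overlapped with TAC vehicle (−0.56 ± 0.23, adjusted p = 0.0945). Without JQ1 replicate 3 this difference was −0.85 and was called (0.0105). The test that the JQ1 effect differed between days was not passed by C3ar1 (adjusted p = 0.304). C3ar1 at day 3 was also lower under JQ1 than in sham hearts (−0.71 ± 0.23, adjusted p = 0.0372, 17.6% of all genes called). That call was lost in 7 alternatives, which were centring on the median (0.0502), trend and robust options (0.0533), fitting only these 2 groups (0.0769) and leaving out sham or JQ1 replicate 1 or 2 (0.0896 to 0.194).

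Of the C1q chains, C1qb and C1qc were lower under JQ1 at day 11 and C1qa was not called on any day. C1qb read 10.60, 10.52 and 10.45 under JQ1 at day 3, 10.34, 10.39 and 10.31 at day 11 and 11.02, 10.53 and 10.73 at day 28. At day 11 these values lay between the sham and the TAC vehicle arrays without touching either. C1qb differed from TAC vehicle by −0.25 ± 0.12 (adjusted p = 0.242), −0.53 ± 0.12 (0.00512) and −0.34 ± 0.12 (0.0611). The day 28 difference was called without TAC replicate 1 (0.0286) or JQ1 replicate 1 (0.0151), with trend and robust options (0.0485) and without the dimmest genes (0.0441). C1qc read 9.82, 9.68 and 9.71, then 9.44, 9.63 and 9.34, and then 10.33, 9.92 and 9.75 under JQ1. Its differences were −0.24 ± 0.13 (0.27), −0.41 ± 0.13 (0.0269) and −0.44 ± 0.13 (0.0165), and at day 28 replicate 1 overlapped with TAC vehicle. Both C1qc calls were fragile. The day 11 call was lost with arrays centred on their median (0.0682) or without TAC or JQ1 replicate 1 or 3 (0.0549 to 0.134). The day 28 call was lost with array weights (0.0831), with only the groups compared (0.105) or without TAC or JQ1 replicate 2 or 3 (0.055 to 0.0962). C1qa read 9.37, 9.25 and 9.17, then 9.19, 9.20 and 9.04, and then 9.80, 9.35 and 9.47 under JQ1, which overlapped with TAC vehicle on each day. Its differences were −0.07 ± 0.12, −0.17 ± 0.12 and −0.14 ± 0.12, with adjusted p of 0.834, 0.377 and 0.404. Over the mean of the 3 days the 95% interval of C1qa was −0.27 to 0.02, that of C1qb −0.52 to −0.22 and that of C1qc −0.51 to −0.21. Whether the chains differ from each other in their response was not tested.

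Serping1 read 11.57, 11.45 and 11.20 under JQ1 at day 3 and 11.53, 11.63 and 11.39 at day 11, overlapping with TAC vehicle on both days (−0.06 ± 0.12, adjusted p = 0.842, and −0.14 ± 0.12, 0.473). At day 28 it read 11.99, 11.61 and 11.78, between the sham and TAC vehicle arrays and apart from both. It was 0.48 ± 0.12 lower than with vehicle on the log2 scale (adjusted p = 0.00496) and still 0.61 ± 0.12 higher than in sham hearts (0.000453). The JQ1 level thus lay between those of the sham and TAC vehicle groups.

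C5ar1 was not called under JQ1 on any day. It read 8.79, 8.29 and 8.10 at day 3, 8.07, 8.07 and 7.93 at day 11 and 8.25, 7.90 and 9.29 at day 28, overlapping with TAC vehicle each time. Its differences were −0.06 ± 0.24 (95% interval −0.56 to 0.45), −0.05 ± 0.24 (−0.55 to 0.46) and 0.18 ± 0.24 (−0.33 to 0.69). The intervals of days 3 and 11 take in the C1qb differences of those days (−0.25 and −0.53). That of day 28 narrowly leaves out the C1qb difference of that day (−0.34). Over the mean of the 3 days the C5ar1 interval was −0.27 to 0.32, and C1qb differed by −0.37. A direct test of C5ar1 against C1qb or C3ar1 was not made. JQ1 replicate 3 of day 28 stood high for C5ar1, and without it the difference from TAC vehicle was −0.23 (adjusted p = 0.41). The same array had the highest mean of 12 neutrophil markers of all 27, 7.09 against 6.16 and 6.14 in the other arrays of its group. Over the 27 arrays C5ar1 correlated with the neutrophil list at 0.70 and with the macrophage list at 0.45, and C3ar1 at 0.42 and 0.90. The part of neutrophils in the C5ar1 values was not tested.

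Over the mean of the 3 days, JQ1 lowered 5 of the 7 genes relative to TAC vehicle, against 29.1% of all genes called. The differences were −0.78 ± 0.09 for C4b (adjusted p = 5.13e-07), −0.93 ± 0.13 for C3ar1 (9.35e-06), −0.37 ± 0.07 for C1qb (0.000309), −0.36 ± 0.07 for C1qc (0.000413) and −0.22 ± 0.07 for Serping1 (0.0126). The Serping1 call was lost with arrays centred on their median (0.0665). C1qa (−0.12 ± 0.07, 0.196) and C5ar1 (0.03 ± 0.14, 0.924) were not called. TAC vehicle against sham over the mean of the 3 days was called for all 7, against 25.9% of all genes. The F test for a JQ1 effect that differs between days called 0 of the 7 by limma, against 1.07% of all genes. C4b came nearest, with adjusted p = 0.0902 and unadjusted p = 0.00265, and Serping1 had an unadjusted p of 0.0419. The JQ1 difference of C4b at day 28 exceeded that at day 3 by −0.82 ± 0.22 (adjusted p = 0.0951). C4b was called by the F test without TAC vehicle day 28 replicate 1 (0.0143).

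The hearts treated with JQ1 were then set against sham hearts, to describe where the levels came to lie. At day 28, 5 of the 7 genes were higher under JQ1 than in sham hearts, against 19.9% of all genes called and 7.36% called higher. C1qa was higher by 1.01 ± 0.12 (adjusted p = 1.85e-06), C1qb by 0.81 ± 0.12 (4.55e-05), C1qc by 0.85 ± 0.13 (2.97e-05), Serping1 by 0.61 ± 0.12 and C5ar1 by 1.01 ± 0.24 (0.00397). For C5ar1 this was 0.61 without JQ1 replicate 3 (0.0372), and the call was lost when only these 2 groups were fitted (0.0586). C3ar1 at day 28 differed from sham by 0.58 ± 0.23 (0.0859) and was called without JQ1 replicate 2 (0.93, adjusted p = 0.00251). At day 11, 1 of the 7 was called, against 10.5% of all genes. This was C1qa (0.38 ± 0.12, adjusted p = 0.0438), and leaving out any sham array or JQ1 replicate 1 or 2 ended the call (0.0874 to 0.148). C3ar1 at day 11 differed from sham by 0.02 ± 0.23. Both comparisons share arrays with those above.

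Over the 9 groups the order of levels was alike in the C1q chains. C1qa was highest in TAC vehicle (9.68 ± 0.21, SD, n = 3) and TAC JQ1 (9.54 ± 0.23) hearts of day 28, which did not differ beyond their spread, and lowest in sham hearts of day 28 (8.53 ± 0.14). C1qb was highest in the 3 TAC vehicle groups (11.10 ± 0.23, 10.87 ± 0.04 and 10.77 ± 0.18 at days 28, 11 and 3), neighbours within about their spread. Its lowest group was sham at day 28 (9.95 ± 0.14). C1qc went from 10.43 ± 0.20 in TAC vehicle hearts of day 28 to 9.15 ± 0.15 in sham hearts of that day. Serping1 stood apart at 12.27 ± 0.15 in TAC vehicle hearts of day 28, followed by TAC JQ1 of day 28 at 11.79 ± 0.19, and the next 5 groups lay between 11.65 and 11.41. C3ar1 held 9.95 ± 0.37, 9.94 ± 0.13 and 9.85 ± 0.24 in TAC vehicle hearts of days 3, 28 and 11, which did not differ beyond their spread, and was lowest in TAC JQ1 hearts of day 3 (8.62 ± 0.36). C5ar1 was highest in TAC JQ1 hearts of day 28 (8.48 ± 0.73), a group whose SD covers the next 6 means, and lowest in sham hearts of day 28 (7.47 ± 0.22).

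The genes most like each member over the 27 arrays were named by Pearson correlation of the levels. C1qb was nearest to Eef1a1 (0.95) and Lyz2 (0.94), and C1qc to Fcer1g (0.92). C1qa was nearest to Ptbp3 (0.93) and Sh3bgrl3 (0.92), and C4b to the chemokine gene Ccl8 (0.93). Serping1 was nearest to Dcn (0.93), a proteoglycan of fibroblasts, and Ints6l (0.93). C3ar1 was nearest to Cybb (0.95), a subunit of the phagocyte oxidase, Pik3ap1 (0.94) and the macrophage marker Adgre1 (0.92), and C5ar1 to Il17ra (0.92). The same arrays and group differences enter each of these.

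Cell type markers moved with these genes. Of 23 macrophage markers 8, 15 and 16 were higher and none lower with TAC at days 3, 11 and 28, with median differences of 0.42, 0.54 and 0.85. Under JQ1 16, 14 and 13 were lower and none higher, with medians of −0.62, −0.41 and −0.39. At day 3 their mean level ranged from 8.29 to 8.52 in sham, 8.65 to 8.99 in TAC vehicle and 7.98 to 8.32 in TAC JQ1 hearts. At day 11 the ranges were 8.16 to 8.22, 8.66 to 8.83 and 8.14 to 8.21, and at day 28 8.07 to 8.15, 8.86 to 9.09 and 8.29 to 8.57. Lyz2, a lysozyme gene of macrophages, rose by 0.41, 0.79 and 1.12 with TAC and was lower by 0.40, 0.41 and 0.38 under JQ1. At day 3, when 16 of these markers were lower under JQ1, 6 of the 7 complement genes were not called, and the difference between the list and the genes was not tested. The correlation with the macrophage list over 27 arrays was 0.70 for C1qa, 0.82 for C1qb, 0.83 for C1qc, 0.79 for C4b and 0.67 for Serping1. Within groups it was 0.65, 0.58, 0.60, 0.47 and 0.14. With the fibroblast list the correlations over 27 arrays were 0.79, 0.89, 0.82, 0.53 and 0.71 for the same genes. These were higher than with the macrophage list for C1qa, C1qb and Serping1. Within groups the fibroblast correlations were 0.28, 0.32, 0.41, −0.19 and 0.36, lower than with the macrophage list for each gene but Serping1. With the cardiomyocyte list the correlations over 27 arrays were −0.83, −0.89, −0.84, −0.40 and −0.76. Within groups those were −0.42, −0.63, −0.40, 0.08 and −0.16. The lists share the same arrays and group differences.

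**Figure D3:**
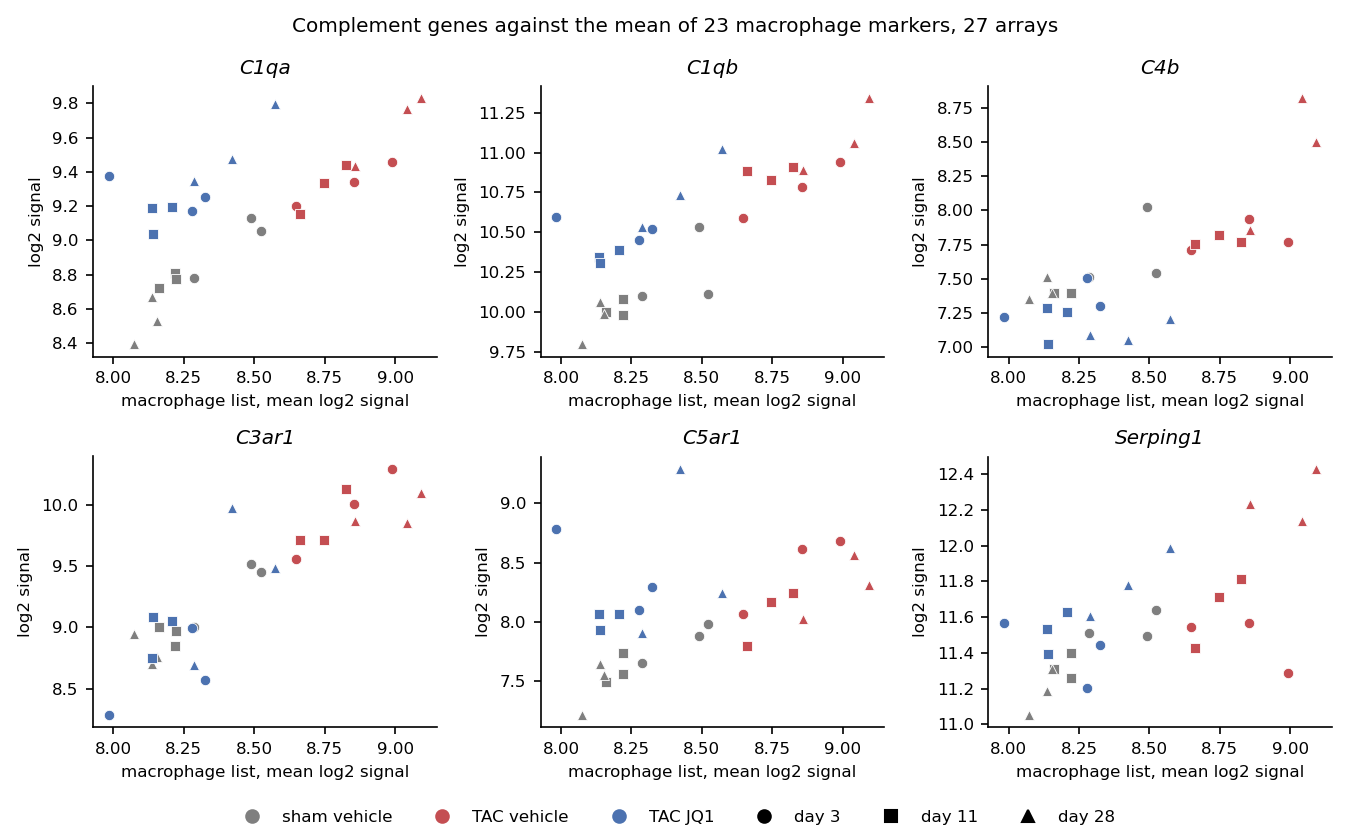
Level of 6 complement genes (vertical axis, log2 signal) against the mean log2 signal of 23 macrophage markers (horizontal axis) on 27 arrays; colour gives the group and symbol shape the day. For C1qa most JQ1 arrays lie above sham arrays of a similar macrophage level, for C4b the lowest arrays are JQ1 arrays, and C3ar1 follows the list most closely (correlation 0.90).

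Other lists were less uniform. Of 12 fibroblast markers 5, 9 and 12 were higher with TAC at the 3 days (1 was lower at day 3), and 5, 6 and 7 were lower under JQ1 (1 was higher at day 3). Their mean level at day 28 ranged from 9.30 to 9.39 in sham, 10.13 to 10.65 in TAC vehicle and 9.71 to 10.00 in TAC JQ1 hearts. Of 5 recruited monocyte markers 4, 2 and 2 were higher with TAC and 3, 2 and 2 lower under JQ1. Of 12 neutrophil markers 1, 0 and 1 were higher with TAC and 1, 0 and 1 lower under JQ1. The 7 hepatocyte markers had mean levels between 6.13 and 6.49 on all arrays. Of these, 0, 0 and 1 were called with TAC and none under JQ1 by limma on the 3 days. They measure RNA in the piece of heart, so they cannot trace circulating complement protein made by the liver. The part of the cell types in the complement values was not tested.

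Of the rest of the complement system, 47 genes in 5 lists were measured. With TAC 8 were higher and none lower at day 3 (17.0%), 11 higher and 2 lower at day 11 (27.7%) and 14 higher and none lower at day 28 (29.8%). Under JQ1 1 was higher and 8 lower at day 3 (19.1%), 1 higher and 13 lower at day 11 (29.8%), and 2 higher and 10 lower at day 28 (25.5%). The matching shares of all genes are those given above. Of the 35 TAC calls 19 held in each alternative run, and of the 35 JQ1 calls 14 did.

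**Figure D4:**
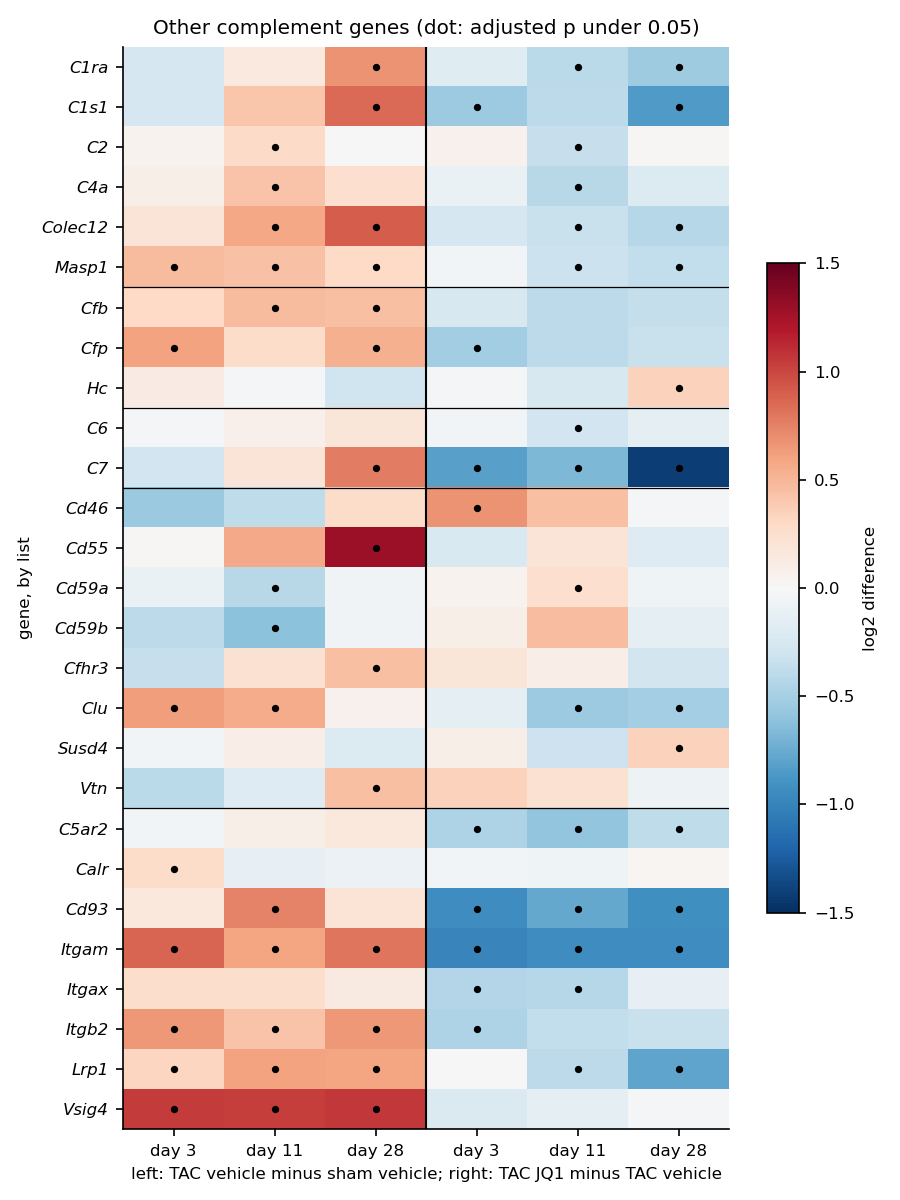
Log2 differences (colour scale) of 27 other complement genes called at least once, by list from top to bottom (classical and lectin start, alternative pathway with C5, terminal pathway, regulators, receptors); columns give TAC minus sham and JQ1 minus TAC vehicle at each day, and dots mark adjusted p under 0.05. Vsig4 is red at each TAC column and pale under JQ1, whereas Cd93 and Itgam are blue at each JQ1 column.

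Of 15 genes listed under the start of the classical and lectin pathways, 1, 4 and 4 were higher with TAC and none lower. Under JQ1 1, 5 and 4 were lower and none higher. A place in the list does not mean that a gene acts in these pathways alone. The C1r protease gene C1ra was 0.68 ± 0.12 higher with TAC at day 28 (adjusted p = 0.000377) and 0.53 ± 0.12 lower under JQ1 (0.00304). The C1s gene C1s1 was 0.85 ± 0.17 higher (0.0014) and 0.86 ± 0.17 lower (0.0011) at that day. The collectin Colec12 rose by 0.58 ± 0.12 at day 11 and 0.91 ± 0.12 at day 28 (1.14e-05), and the lectin protease gene Masp1 by 0.48 ± 0.09, 0.44 ± 0.09 and 0.30 ± 0.09 at the 3 days. C2 was higher at day 11 (0.29 ± 0.09, 0.0334). The C2 call was lost in 5 of 13 alternatives (adjusted p up to 0.202), that of Masp1 at day 28 in 6 of 14 (0.102), and that of C1s1 under JQ1 in 1 of 14 (0.0562).

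In the alternative pathway, factor B (Cfb) was higher with TAC at days 11 and 28 (0.47 ± 0.14 and 0.46 ± 0.14) and properdin (Cfp) at days 3 and 28 (0.60 ± 0.17 and 0.53 ± 0.17). Under JQ1 Cfp was lower at day 3 (−0.52 ± 0.17, adjusted p = 0.0411). Hc, which encodes C5 and was placed in this list, was not called with TAC. It was higher under JQ1 at day 28 (0.35 ± 0.11, adjusted p = 0.0292), at low mean levels of 5.48 with vehicle and 5.83 under JQ1. These calls were lost in some alternatives. With TAC these were Cfb in 2 of 14 at day 11 (adjusted p up to 0.135) and 5 of 14 at day 28 (0.166), and Cfp in 5 of 14 at day 3 (0.3) and 4 of 14 at day 28 (0.149). Under JQ1 these were Cfp in 9 of 14 (0.316) and Hc in 5 of 13 (0.162). Of 6 genes of the terminal pathway, which forms the membrane attack complex, C7 was the one called with TAC. C7 read 8.66, 8.81 and 8.92 in sham, 9.56, 9.51 and 9.62 in TAC vehicle and 8.23, 8.10 and 8.14 in TAC JQ1 hearts at day 28. The 3 groups did not overlap, and the JQ1 values were the lowest. C7 was 0.77 ± 0.19 higher with TAC (adjusted p = 0.00701), and under JQ1 1.41 ± 0.19 lower than with vehicle (2.66-fold, 1.39e-05). It was 0.64 ± 0.19 below sham (0.0176). At days 3 and 11 C7 under JQ1 was lower by 0.82 ± 0.19 (0.00608) and 0.68 ± 0.19 (0.0172), the latter lost in 2 of 14 alternatives (up to 0.124). C7 and C4b thus both lay below the sham arrays under JQ1 at day 28.

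Regulators that protect host cells moved in both directions. Of 13, 1, 1 and 3 were higher with TAC and 2 lower at day 11. JQ1 gave 1 call at day 3, which was higher, and 2 each at days 11 and 28, 1 higher and 1 lower. Cd46 was higher under JQ1 at day 3 (0.67 ± 0.22, adjusted p = 0.044), Cd59a at day 11 (0.25 ± 0.09, just under 0.05) and Susd4 at day 28 (0.34 ± 0.12, 0.0462). These were lost in 6, 7 and 6 of 14 alternatives (up to 0.353, 0.192 and 0.161). Cd55, which speeds the decay of convertases, was 1.28 ± 0.23 higher with TAC at day 28 (adjusted p = 0.000353), and JQ1 differed from vehicle by −0.19 ± 0.23 (0.559). Clu, a fluid-phase inhibitor of the attack complex, rose at days 3 and 11 (0.63 ± 0.12 and 0.56 ± 0.12) and was lower under JQ1 at days 11 and 28 (−0.55 ± 0.12 and −0.51 ± 0.12). The membrane inhibitors Cd59a and Cd59b were lower with TAC at day 11 (−0.42 ± 0.09, 0.00118, and −0.62 ± 0.16, 0.01), and the Cd59b call was lost in 2 of 14 alternatives (up to 0.0617).

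Of 10 further receptors, 5, 5 and 4 were higher with TAC and 5, 5 and 4 lower under JQ1. Vsig4, a receptor for C3b and iC3b on resident macrophages, read 6.75, 6.88 and 7.03 in sham, 7.83, 7.92 and 8.07 in TAC vehicle and 7.78, 7.81 and 7.58 in TAC JQ1 hearts at day 3. It rose with TAC by 1.05 ± 0.19, 1.04 ± 0.19 and 1.06 ± 0.19 at the 3 days (adjusted p = 0.00133, 0.000474 and 0.000461). Its JQ1 differences were −0.21 ± 0.19, −0.14 ± 0.19 and −0.02 ± 0.19, with adjusted p of 0.595, 0.668 and 0.948. At day 3 the JQ1 arrays lay just below the TAC vehicle arrays and on the other days they overlapped. Itgam, the alpha chain of complement receptor CR3, rose by 0.87 ± 0.17, 0.59 ± 0.17 and 0.80 ± 0.17 with TAC and fell by 0.995 ± 0.17, 0.93 ± 0.17 and 0.93 ± 0.17 under JQ1. The Itgam calls were lost in 1 and 3 of 14 alternatives with TAC at days 3 and 11 (up to 0.0716 and 0.106) and in 1 of 14 under JQ1 at day 3 (0.0525). Cd93, once proposed as a C1q receptor and found on endothelium and myeloid cells, was lower under JQ1 by 0.93 ± 0.10, 0.77 ± 0.10 and 0.92 ± 0.10. The TAC difference of Cd93 was called at day 11 (0.74 ± 0.10). The C5a receptor C5ar2 was not called with TAC, and JQ1 lowered it by 0.46 ± 0.08, 0.59 ± 0.08 and 0.38 ± 0.08 (adjusted p = 0.00035, 2.14e-05 and 0.00133), the day 28 call lost in 1 of 14 alternatives (0.0551). At day 11 C5ar2 read 7.20, 7.37 and 7.22 in sham, 7.39, 7.33 and 7.31 in TAC vehicle and 6.76, 6.73 and 6.79 in TAC JQ1 hearts. The C5ar2 values under JQ1 lay below both other groups at days 3 and 11, while C5ar1 overlapped with TAC vehicle on those days, and the difference between the 2 receptors was not tested.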

How the data were processed

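RNA of mouse heart tissue, 27 samples in all, was labelled with the Ambion WT Expression Kit and Affymetrix reagents, per the labels' protocols. The values the authors deposited are log2 signals, 34760 probe sets on each array. They were used with a normalization not given in the sources used here. The submitters' processing notes list limma, without a version. Probe sets naming 1 gene were kept (21640), and for 954 genes with several the one with the highest mean was used. One mean per group was fitted to all 27 arrays with limma 3.58.1 in R 4.3.3 (18 residual and 4.9 prior degrees of freedom), with Benjamini-Hochberg adjustment over 19937 genes in each of 16 comparisons. The fits were tested on simulated data. With 3 arrays per group, their number limits the precision.

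The members and the gene and marker lists were chosen with earlier results of these data known. The genes named are all members; of the other complement genes up to 4 per list and comparison with the smallest p among those called; up to 2 markers per list by level; and up to 3 genes per member by correlation. C3 and some names of the other complement lists were not matched and are not analysed here. The alternatives were quantile normalization again, centring on array medians, leaving out the dimmest genes (1 in 3), averaging probe sets within a gene, trend and robust options, array weights, only the groups compared, the replicate number as a block and leaving out each array. Marker lists of mast, lymphoid, endothelial, smooth muscle, mesothelial and red cells are described in the closing section.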

Additional observations from a re-analysis of the deposited data

Results flagged for a closer look

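The TAC effect differed between days by the moderated F test of limma for C1qa (adjusted p = 0.0287), C1qc (0.0191) and Serping1 (0.00388), which is why these are listed here. For C1qa the TAC effect went from 0.35 at day 3 to 0.54 at day 11 and 1.15 at day 28, with all 3 TAC arrays above all 3 sham arrays on each day. For C1qc it went from 0.36 to 0.60 and 1.29, again with no overlap on any day. For Serping1 it went from -0.08, with overlapping arrays, to 0.33 and 1.08, with all TAC arrays above all sham arrays at days 11 and 28. These effects moved with both arms. From day 3 to day 28 TAC vehicle levels of C1qa, C1qc and Serping1 changed by 0.35 (not called), 0.46 and 0.80. Sham levels changed by −0.46, −0.46 and −0.36, and none of these was called. The cause was not tested.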

How the results depend on the processing

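Of 1526 member differences recomputed under alternatives, 29 turned sign, and none of these was called in either fit. Of the 20 member calls against sham or TAC vehicle on single days, 9 of 12 for TAC and 4 of 8 for JQ1 held in each alternative. Counts below are members called of 7. With array weights the count went from 1 to 5 (TAC day 3), 4 to 7 (TAC day 11), 1 to 2 (JQ1 day 3), 1 to 4 and 1 to 3 (JQ1 against sham, days 3 and 11), and 0 to 1 in the F tests on JQ1 by day and on sham level. With only the groups compared it went from 1 to 0 (TAC day 3; JQ1 against sham day 3), 1 to 3 (JQ1 against sham day 11) and 3 to 1 (TAC day 28 against day 3). Leaving out the dimmest genes gave 2 for JQ1 day 3, and centring on the median or trend and robust options gave 0 for JQ1 against sham day 3. Leaving out 1 array at a time gave 0 to 2, 3 to 5 and 6 to 7 for TAC at days 3, 11 and 28, 1 to 2, 2 to 4 and 2 to 4 for JQ1, 0 to 1, 0 to 1 and 5 to 6 for JQ1 against sham, 1 to 3 for TAC day 28 against day 3, 1 to 4 for the TAC effect by day and 0 to 1 for the JQ1 effect by day. The causes were not tested. Each member has 1 probe set, so using the other probe sets of a symbol gave no value for them.

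With the replicate number as a block within each day, the count went from 3 to 1 for the TAC effect by day (C1qa 0.0724, C1qc 0.0666) and from 1 to 0 for JQ1 against sham at day 11, and C1qc under JQ1 at day 11 was lost (0.0607). With the number over all days as a block, C1qc in TAC day 28 against day 3 was lost (0.0545). The labels do not say what arrays of the same number share. Deviations from the group means of same-numbered arrays of a day had a median correlation of 0.0021 over 27 pairs, 7 of them over 0.1. These correlations ran from −0.46 to 0.50. For arrays of different number the median was −0.0208 over 54 pairs, 15 of them over 0.1. Such values do not settle whether arrays were paired.

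Over all genes the counts moved with only the groups compared, from 1506 to 250 (TAC day 3), 2372 to 422 (JQ1 day 3), 3907 to 2126 (JQ1 day 28), 3511 to 1178 (JQ1 against sham day 3) and 727 to 118 (TAC day 28 against day 3), and with array weights, to 2904 and from 3097 to 5972 for TAC at days 3 and 11, from 3180 to 6929 for JQ1 at day 11, and to 6313 and from 2097 to 5461 for JQ1 against sham at days 3 and 11. Leaving out 1 array gave as few as 466 (TAC day 3, without TAC replicate 2), 1794 (TAC day 28, from 3013, without TAC replicate 3), 1409 (JQ1 day 3, without JQ1 replicate 1), 2039 (JQ1 day 11, without JQ1 replicate 1), 1180 (JQ1 against sham day 11, without JQ1 replicate 1) and 299 (TAC day 28 against day 3, without TAC day 28 replicate 3). The F test counts moved from 261 to between 96 and 2045 (TAC by day), from 213 to between 2 and 2704 (JQ1 by day) and from 13 to between 0 and 2162 (sham). The probe sets carry no detection calls here, so low levels cannot be told from background.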

Other observations

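Marker lists of other cells gave these values beside the complement genes. Of 8 endothelial markers 0, 3 and 1 were higher with TAC at days 3, 11 and 28 and none lower, and 2, 2 and 5 were lower under JQ1 than with vehicle. Of 8 smooth muscle and pericyte markers 2, 2 and 0 were higher and 1, 1 and 2 lower with TAC. Of 11 markers of T, B and NK cells 0, 1 and 0 were higher with TAC and 0, 1 and 0 lower under JQ1. Of 7 mast cell markers 1 was higher with TAC at day 11 and 1 lower at day 28, and 1 was lower under JQ1 at day 11. Of 6 mesothelial markers none was called with TAC on the 3 days, and 2 were higher under JQ1 at day 28. The 2 red cell markers, Alas2 and Slc4a1, were both higher under JQ1 than with vehicle at day 28, and 1 of them at day 11.

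At day 11 C4a, the paralog of C4b, was 0.42 ± 0.14 lower under JQ1 than with vehicle (adjusted p = 0.0355), and C4b was 0.59 ± 0.16 lower. The C4a call was lost in 7 of 13 alternatives (up to 0.168). At day 28 C4a read 6.56, 6.72 and 6.65 with vehicle and 6.59, 6.66 and 6.08 under JQ1 (−0.20 ± 0.14, adjusted p = 0.291), and C4b was 1.28 ± 0.16 lower. The difference between the paralogs was not tested.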
